A study of Mus musculus with 12 samples.

Results

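The absorptive surface of gut and kidney epithelium is a brush border, a lawn of microvilli that each hold a core of bundled actin filaments. Linker proteins tie the membrane to that core, scaffold proteins hold transporters in place, adhesion molecules join neighbouring microvilli at their tips, and mucins and small anchored proteins coat the outer face. Hepatocytes and bile duct cells carry shorter microvilli on their apical faces, which border the bile canaliculus and the duct lumen.

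RNA of 8 genes of this apparatus was followed in BMEL cells, immortal lines of bipotential mouse embryonic liver, whose cells can turn toward the hepatocyte or the bile duct fate. Vil1, Espn, Ezr and Pdzk1 build or hold the microvillus, and Cdhr5, Muc13, Lypd8 and Clec2h lie on its surface. They are 8 of the 12393 genes measured. The members were chosen by name, with earlier results on how genes of these arrays differ between cultures already known, so their culture changes are a description and not independent evidence. Where a gene had several probe sets, the one used was selected on its brightness, the mean log2 intensity over the 12 arrays, and that mean is no finding.

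Total RNA was measured on 12 one-colour Affymetrix mouse 430A arrays. The lines 9A1 and 14B3 were isolated independently from embryonic mouse liver of the cross CBA/J x C57Bl/6J, and no genetic change or added agent is named for either. Each line was grown in basal culture, as aggregates for 5 days and in Matrigel, a basement membrane gel, for 10 days, with 2 arrays for each of the 6 combinations. The array Matrigel_14B3 replicate 1 is labelled 5 days, and no time is given for basal culture. Matrigel and aggregate cultures thus differ in time as well as in surroundings, and these cannot be told apart. Within Matrigel, line and time are also partly mixed, because the array labelled 5 days is of 14B3. Each line stands for 1 isolate, so a difference between lines is a difference between these isolates. The design text speaks of duplicate biological replicates without saying whether they were separate cultures. The p-values therefore reflect no more than the spread among these arrays, which could be technical. In RNA of whole cultures, fewer cells of a type and less RNA per cell cannot be told apart.

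Array medians ran from 268 to 281 intensity units, and precision is limited by the number of arrays. The liver label was checked against 11 measured markers, which met it in part. Krt8, Krt18 and Krt19, keratins of simple epithelium, had means of 12.32 to 13.87 log2 units in every culture, and the liver factor Hnf4a had 11.65, 12.59 and 12.20 in basal, aggregate and Matrigel culture. Albumin (Alb) had 8.08, 12.45 and 12.54, so this hepatocyte product was dim in basal culture. Other liver markers had basal means of 7.49 for Sox9, 7.67 for Epcam, 9.02 for Ttr, 9.06 for Apoa1 and 9.25 for Afp. Sox9 and Epcam thus lay below the median level of all genes, 8.46, and Ttr, Apoa1 and Afp above it. Sox9 stayed at 7.02 and 7.33 in aggregates and Matrigel.

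The stretches of genome just before the gene starts are shown for 5 members, 4 that rose with culture and Ezr, which did not, so that the sequences can be set beside their levels. They are RefSeq sequence of build GRCm38.p6, 120 bases each, written 5′ to 3′ on the gene's strand and ending at the base before the outermost start in the table, which for these 5 is also the end of the gene span. Lypd8 lies at chr11:58378912-58379031 (+), Clec2h at chr6:128662265-128662384 (+), Vil1 at chr1:74409264-74409383 (+), Muc13 at chr16:33793917-33794036 (+) and Ezr at chr17:6782781-6782900 (-). Capitals mark the letters TATATAA, the core of a TATA box.
Lypd8: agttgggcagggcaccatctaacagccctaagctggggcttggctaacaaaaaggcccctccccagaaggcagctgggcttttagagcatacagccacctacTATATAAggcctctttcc
Clec2h: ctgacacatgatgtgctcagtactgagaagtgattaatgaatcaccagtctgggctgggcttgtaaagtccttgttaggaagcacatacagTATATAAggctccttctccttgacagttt
Vil1: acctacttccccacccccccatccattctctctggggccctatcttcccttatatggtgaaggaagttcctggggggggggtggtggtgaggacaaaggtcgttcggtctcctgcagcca
Muc13: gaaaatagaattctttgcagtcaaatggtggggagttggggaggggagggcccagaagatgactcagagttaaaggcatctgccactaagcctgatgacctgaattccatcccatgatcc
Ezr: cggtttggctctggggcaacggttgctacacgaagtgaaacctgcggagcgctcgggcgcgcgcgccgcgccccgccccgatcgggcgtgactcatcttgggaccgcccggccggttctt
The letters TATATAA begin 18 bases before the start in Lypd8 and 29 bases before it in Clec2h, on the strand of the gene. On either strand they occur in 3.24% of the 32851 mouse promoter windows of 300 bases (250 before and 50 after a start), and this motif was looked for after the windows had been read. In the 8 genes it was searched only in the 250 bases before the first listed start, so the share is over longer windows than that search. All 8 genes matched the table, with 13 windows in all because Espn, Pdzk1, Muc13 and Lypd8 have several starts. The windows at the first listed starts differed in base composition, with a GC share of 38.0% in Clec2h, 46.3% in Muc13, 51.3% in Lypd8, 61.7% in Vil1 and 68.0% in Ezr, against a median of 52.7% over all windows. The GC share was 62.7% in Espn, 55.0% in Cdhr5 and 51.0% in Pdzk1, and a relation of base composition to the culture changes was not tested.

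Short motifs of 4 factor families of liver and gut were searched on both strands of the 13 windows. The HNF1 letters GTTAAT were in 2 of the 13 windows (7.10% of all mouse windows) and the HNF4 letters CAAAGTC in 2 (4.44%). The GATA letters AGATAA were in 1 window (11.2% of all) and the CDX letters CCATAAA in 1 (2.75%). The hits lay at inner starts of Muc13 (GTTAAT and CAAAGTC), Lypd8 (GTTAAT and AGATAA) and Espn (CCATAAA), and 15 bases after the first listed start of Pdzk1 (CAAAGTC). The first listed starts of Pdzk1, Espn and Cdhr5 lie inside the gene spans given below, so their windows may not be at the outer end of the gene. A match is a run of letters and not a shown binding site.

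The plain course of the RNA was this: the 4 surface genes and villin were lowest in basal culture, highest in aggregates and between these in Matrigel, where they lay 1.38-fold (Lypd8) to 4.10-fold (Clec2h) below aggregates. Ezrin went the other way by less than 1 log2 unit, Pdzk1 passed as higher in aggregates and not in Matrigel, and no change of espin passed the test. In the fit over all genes (limma, with Benjamini-Hochberg adjustment over 12393 genes and a threshold of 0.05), the aggregates had 6 of the 8 above basal culture and 1 below it, beside 22.9% and 23.4% of all genes. Matrigel had 5 above basal culture and 1 below it, beside 14.1% and 14.3%. Against aggregates, Matrigel had 1 above and 6 below, beside 13.9% and 12.7%, and 52.3% of all called genes were higher there (41.5% with each array centred on its median). The median change of the 8 genes was 4.13, 3.24 and -0.81 log2 units in these comparisons, and that of all genes 0.10, -0.04 and -0.10. Since the genes were proposed with such changes in view, nothing is read from these counts.

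**Figure D1:**
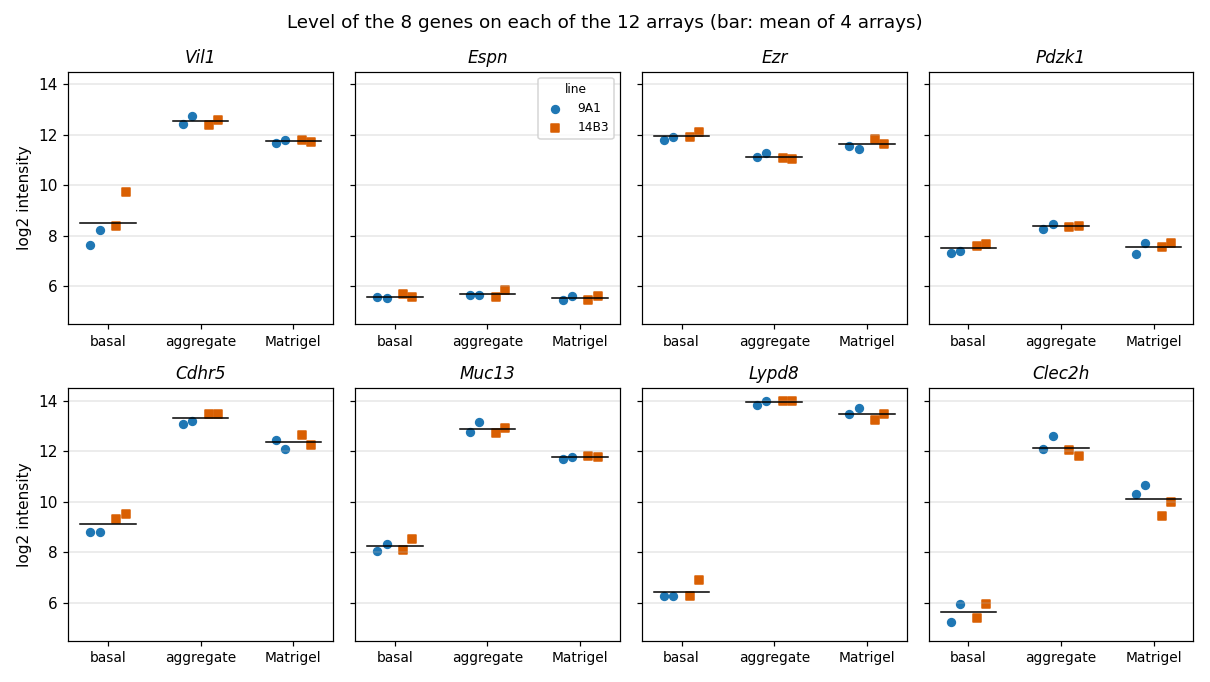
Log2 intensity (vertical axis) of each of the 8 genes on the 12 arrays by culture (horizontal axis), with circles for line 9A1, squares for 14B3 and a bar at the mean of 4 arrays. Lypd8 goes from 6.25 to 6.90 in basal culture to 13.82 to 14.00 in aggregates, while Espn stays between 5.46 and 5.84 throughout.

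Array values below are log2 intensities in the order 9A1 replicate 1, 9A1 replicate 2, 14B3 replicate 1 and 14B3 replicate 2. They are levels of a probe set and are not compared between genes. Among the actin bundlers, villin (Vil1, Entrez Gene 22349, chr1:74409384-74435560) ties filaments together and can also cut them. Its basal arrays read 7.63, 8.22, 8.41 and 9.74. The aggregate arrays read 12.45, 12.75, 12.41 and 12.60, and the Matrigel arrays 11.69, 11.80, 11.79 and 11.71. The 3 cultures did not overlap, and basal_14B3 replicate 2 stood highest of the basal arrays. Vil1 rose by 4.05 ± 0.24 log2 units (SE, 4 against 4 arrays), 16.6-fold, in aggregates (limma adjusted p = 5.63e-08). In Matrigel it rose by 3.25 ± 0.24, 9.48-fold (limma adjusted p = 1.37e-06). The Matrigel level was 0.81 log2 units below that of aggregates, a change of -0.81 ± 0.24 with adjusted p = 0.0255 in limma, and this call was lost with quantile normalization (adjusted p = 0.0536) and with array weights (adjusted p = 0.0911). It was also lost without any 1 of 5 arrays, aggregate_9A1 replicate 2, aggregate_14B3 replicate 2, Matrigel_9A1 replicate 1 or either Matrigel_14B3 array, with changes of -0.83 to -0.73 (limma adjusted p of 0.0542 to 0.0828).

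Espin (Espn, Entrez Gene 56226, chr4:152120331-152152414), the other bundler, makes long parallel actin bundles in microvilli and in the stereocilia of the ear. Its mean level was 5.60 ± 0.07 (SD, n = 4) in basal culture, 5.69 ± 0.11 in aggregates and 5.54 ± 0.09 in Matrigel. The lowest array read 5.46 and the highest 5.84, so the 3 cultures overlapped. The aggregate change was 0.09 with a 95% interval of -0.12 to 0.30, and the Matrigel change was -0.06 with an interval of -0.27 to 0.15. These intervals hold no change as large as those of villin, but a level this low may be background, and a probe set at background shows little of any change.

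Ezrin (Ezr, Entrez Gene 22350, chr17:6738131-6782780) links the plasma membrane to actin filaments. The basal arrays read 11.80, 11.94, 11.92 and 12.10. The aggregate arrays read 11.12, 11.28, 11.08 and 11.03, and the Matrigel arrays 11.56, 11.45, 11.84 and 11.66. All aggregate arrays lay below all others, whereas Matrigel_14B3 replicate 1 lay above the lowest basal array. Ezr fell by 0.81 on the log2 scale, 1.75-fold lower, in aggregates (limma adjusted p = 2.22e-05). In Matrigel it fell by 0.31 (limma adjusted p = 0.0299), and with the gene's probe sets averaged that change was -0.24 (adjusted p = 0.0543). This call was lost without any 1 of 5 arrays, basal_9A1 replicate 1 or 2, basal_14B3 replicate 2, Matrigel_9A1 replicate 2 or Matrigel_14B3 replicate 2, with changes of -0.35 to -0.27 (limma adjusted p of 0.0551 to 0.117). Between Matrigel and aggregates it was higher by 0.50 ± 0.10 (SE; limma adjusted p = 0.00259).

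A second Ezr probe set did not follow the first. The set 1456725_x_at, whose suffix marks probes that can match other transcripts, had means of 11.22, 11.24 and 11.04 in basal, aggregate and Matrigel culture. Its changes were 0.02 in aggregates (limma adjusted p = 0.879), -0.18 in Matrigel (adjusted p = 0.337) and -0.20 between the 2 (adjusted p = 0.22). With the probe sets averaged, the aggregate change was -0.39 (limma adjusted p = 0.00271), and the difference between Matrigel and aggregates was 0.15 (adjusted p = 0.208). The direction for Ezr therefore rests on 1 of its 2 probe sets.

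Pdzk1 (Entrez Gene 59020, chr3:96829456-96870926) is a scaffold whose PDZ domains hold transporters and channels under the apical membrane, and in liver the lipoprotein receptor Scarb1. Basal arrays read 7.31, 7.41, 7.61 and 7.69. Aggregate arrays read 8.28, 8.48, 8.35 and 8.39, and Matrigel arrays 7.27, 7.73, 7.55 and 7.71. The aggregate arrays stood above all 8 others, while basal and Matrigel arrays overlapped. The rise in aggregates was 0.87 ± 0.11 log2 units (SE), 1.83-fold (limma adjusted p = 4.69e-05). Against basal culture the Matrigel change was 0.06, with a 95% interval of -0.19 to 0.31 (limma adjusted p = 0.787), and against aggregates it was -0.81 ± 0.11 (adjusted p = 0.000319).

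On the surface, Cdhr5 (Entrez Gene 72040, chr7:141269080-141276795) encodes the mucin-like protocadherin that joins the tips of neighbouring microvilli. Basal arrays read 8.81, 8.81, 9.32 and 9.50. Aggregate arrays read 13.08, 13.21, 13.46 and 13.49, and Matrigel arrays 12.44, 12.08, 12.62 and 12.25. No array of one culture reached into another, and in basal culture and aggregates both 14B3 arrays lay above both 9A1 arrays. Cdhr5 rose by 4.20 ± 0.12 log2 units (SE), 18.4-fold, in aggregates (limma adjusted p = 2.18e-10). The Matrigel rise was 3.24 ± 0.12, 9.45-fold (limma adjusted p = 3.38e-09), which left Matrigel 0.96 below aggregates by a change of -0.96 ± 0.12 (adjusted p = 0.00011).

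Muc13 (Entrez Gene 17063, chr16:33794037-33819929) is a mucin anchored in the membrane of gut epithelium. Basal arrays read 8.05, 8.31, 8.09 and 8.51. Aggregate arrays read 12.76, 13.15, 12.74 and 12.91, and Matrigel arrays 11.71, 11.76, 11.81 and 11.78. The 3 cultures were apart from each other, and the Matrigel arrays lay closest together (SD 0.04). The rise was 4.65 ± 0.13 (SE), 25.1-fold, in aggregates (limma adjusted p = 1.99e-10) and 3.52 ± 0.13, 11.5-fold, in Matrigel (adjusted p = 3.4e-09). Between Matrigel and aggregates the change was -1.13 ± 0.13 (limma adjusted p = 6.64e-05). The dimmer probe set 1419386_at changed by 3.85, 2.70 and -1.15 in the same comparisons.

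Lypd8 (Entrez Gene 70163, chr11:58379032-58390541) encodes a small lipid-anchored protein of the Ly6 type that is shed into the lumen of the colon, where it keeps motile bacteria away from the epithelium. Basal arrays read 6.28, 6.28, 6.25 and 6.90. Aggregate arrays read 13.82, 13.97, 13.98 and 14.00, and Matrigel arrays 13.46, 13.72, 13.23 and 13.49. The basal arrays stood far below the other 8, and the Matrigel arrays lay just below the aggregate ones without overlap. In Matrigel the rise was 7.05 ± 0.14 log2 units (SE), 132-fold (limma adjusted p = 1.87e-11), beside 7.51 ± 0.14 in aggregates (adjusted p = 1.02e-11). Averaged over both lines, each was the highest rise of the 12393 genes, rank 1, though from a basal level that may be background. In 14B3 alone the aggregate rise had rank 3. The step from aggregates to Matrigel was -0.47 ± 0.14 (limma adjusted p = 0.0264), a call lost with array weights (adjusted p = 0.0691). It was lost too without any 1 of 5 arrays, aggregate_9A1 replicate 2, either aggregate_14B3 array, Matrigel_9A1 replicate 1 or Matrigel_14B3 replicate 1, with changes of -0.47 to -0.40 (limma adjusted p of 0.0504 to 0.0988).

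Clec2h (Entrez Gene 94071, chr6:128662385-128677374) encodes a C-type lectin-like surface protein found on gut epithelium. Basal arrays read 5.22, 5.93, 5.40 and 5.93. Aggregate arrays read 12.08, 12.60, 12.04 and 11.80, and Matrigel arrays 10.31, 10.67, 9.42 and 9.97. The cultures were apart, and both 14B3 arrays in Matrigel lay below both 9A1 arrays. The lowest of them, at 9.42, is the array labelled 5 days. In aggregates Clec2h rose by 6.51 ± 0.20 (SE; limma adjusted p = 4.32e-10). In Matrigel it rose by 4.47 ± 0.20, 22.2-fold (limma adjusted p = 2.13e-08). Its step from aggregates to Matrigel was -2.04 ± 0.20, 4.10-fold lower (limma adjusted p = 2.9e-05), the largest of the 8 genes. The other probe sets of the gene gave the same directions: 1451438_s_at changed by 4.24, 2.19 and -2.05, and 1424673_at by 5.41, 3.69 and -1.73, in aggregates, in Matrigel and between them.

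**Figure D2:**
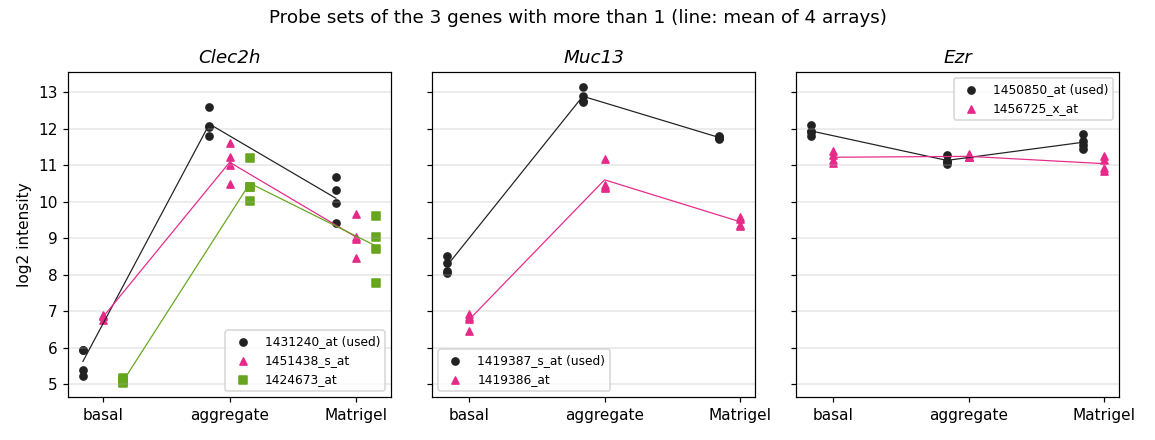
Log2 intensity (vertical axis) of every probe set of Clec2h, Muc13 and Ezr by culture (horizontal axis), with 1 point per array and a line through the means of 4 arrays. The sets of Clec2h and Muc13 move together, while the second Ezr set has means of 11.22 and 11.24 in basal culture and aggregates.

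Counted by arrays, 6 of the 8 genes had all aggregate arrays above all basal arrays and 1 (Ezr) had all below, against 24.6% and 21.8% of all genes. In Matrigel against basal culture 5 had all arrays above and 0 all below, against 12.6% and 13.6%. In Matrigel against aggregates 1 (Ezr) had all arrays above and 6 all below, against 11.8% and 13.5%. Espn overlapped in each of the 3 comparisons. These comparisons share their arrays, so their values stand side by side and are not separate support.

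**Figure D3:**
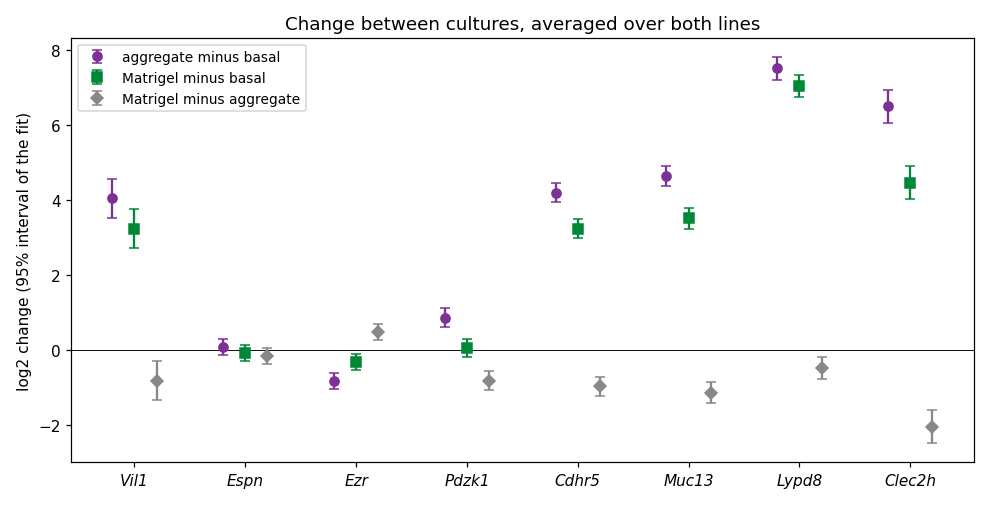
Change between cultures in log2 units (vertical axis) for each of the 8 genes (horizontal axis), averaged over both lines, with bars for the 95% interval of the fit. Aggregate changes (circles) run from -0.81 in Ezr to 7.51 in Lypd8, and Matrigel minus aggregate (diamonds) is below 0 for every gene but Ezr.

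Basal levels limit how these rises can be read. A loose guide to probe sets with no transcript was taken from 35 measured genes of sperm, eye, pituitary, brain and muscle. Their levels ran from 4.30 to 9.69 with a median gene mean of 7.39, and 3 of the 35 were called in a culture or line comparison. All 3 were called in aggregates, 2 higher and 1 lower, beside 22.9% and 23.4% of all genes. The 90th percentile of the gene means of the guide was 8.23, and the median level of all genes was 8.46. The basal means of 7 of the 8 members, all but Ezr, lay within the whole range, but those of Cdhr5 (9.11), Vil1 (8.50) and Muc13 (8.24) lay above that percentile, and Cdhr5 and Vil1 above the median level of all genes. The guide genes may themselves be expressed, so a basal level in the range may still be signal. Where it is background, the fold given is too small.

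The array basal_14B3 replicate 2 was the highest basal array for 6 of the 8 genes. For Vil1 it lay 1.33 log2 units above replicate 1 of the line, and the replicates of 9A1 differed by 0.59. It also had the highest summed level of the enterocyte markers among basal arrays, 12.63 against 11.92 on the lowest. The part of marker levels in the result was not tested. This array was the highest basal one for liver (15.62), secretory gut (10.77), kidney tubule (11.55), blood (10.54) and endothelial and stellate markers (11.02) as well. Without it the aggregate rise was 4.38 for Vil1, 7.68 for Lypd8 and 6.64 for Clec2h, and the Matrigel change of Ezr was -0.27 (limma adjusted p = 0.117).

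The lines were set against each other to ask whether both isolates respond alike. Averaged over cultures, 1 of the 8 genes passed, Cdhr5, where 6.01% of all genes passed in either direction and 2.57% were higher in 14B3. Cdhr5 was higher in 14B3 by 0.37 ± 0.09 (SE, 6 against 6 arrays; limma adjusted p = 0.0396). By culture its line difference was 0.60 in basal culture, 0.33 in aggregates and 0.18 in Matrigel. The averaged difference had adjusted p = 0.0569 in limma with each array centred on its median, and it was lost without any 1 of 10 of the 12 arrays (0.31 to 0.40, adjusted p of 0.0580 to 0.123). Only the fits without Matrigel_9A1 replicate 1 (0.43) and without Matrigel_14B3 replicate 2 (0.43) kept it. Clec2h had the opposite sign, -0.38 with a 95% interval of -0.74 to -0.02 (limma adjusted p = 0.27), and Vil1 had 0.35 with an interval of -0.07 to 0.77 (adjusted p = 0.427).

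The response to culture was tested for a difference between lines, 14B3 minus 9A1. In limma 0 of the 8 genes passed for aggregates, where 0.468% of all genes passed, and 0 for Matrigel, where 0.686% did. An unadjusted limma p below 0.05 was found for Vil1 in aggregates (0.0226) and for Vil1 (0.0337) and Clec2h (0.0487) in Matrigel. The share of all genes below that unadjusted threshold was not taken, so nothing is read from these values. With the replicate number as a block the count over all genes at the adjusted threshold was 118 in place of 58 for aggregates. It was 165 in place of 85 for Matrigel, and 1119 in place of 745 for the line difference.

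The response of Vil1 differed most between the lines among the 8 genes, and the size of that difference depends on basal_14B3 replicate 2. Its aggregate rise was 4.67 in 9A1 and 3.43 in 14B3, a difference of -1.24 ± 0.47 (SE; limma adjusted p = 0.544). The Matrigel rise was 3.81 and 2.68, a difference of -1.14 ± 0.47 (limma adjusted p = 0.617). The gap lay in basal culture, where 14B3 stood 1.14 above 9A1 (limma adjusted p = 0.148), while in aggregates and Matrigel the lines differed by -0.10 and 0.01. Without basal_14B3 replicate 1 the response differences were -1.90 (limma adjusted p = 0.0344) and -1.80 (adjusted p = 0.0413), since the brighter replicate then stood alone for 14B3, and the line difference was 0.57 (adjusted p = 0.0253). Without basal_14B3 replicate 2 the same differences were -0.58, -0.47 and 0.13 (limma adjusted p of 0.798 or higher).

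The other members responded in the same direction in each line wherever a change from basal culture had passed. The aggregate changes in 9A1 and in 14B3 were 7.61 and 7.42 for Lypd8, 6.77 and 6.25 for Clec2h, 4.77 and 4.52 for Muc13, 4.34 and 4.06 for Cdhr5, 1.02 and 0.72 for Pdzk1 and -0.67 and -0.95 for Ezr. For Clec2h the Matrigel rise was 4.92 in 9A1 and 4.03 in 14B3, a difference of -0.88 ± 0.40 (SE; limma adjusted p = 0.731). The Matrigel fall of Ezr passed in neither line alone, with changes of -0.37 and -0.26 (limma adjusted p = 0.0929 and 0.263). Intervals of these line differences are wide: for Lypd8 in aggregates the difference of -0.20 had a 95% interval of -0.80 to 0.40.

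The profiles of the 8 genes over the 6 group means were compared after centring each on its own mean. Vil1 and Cdhr5 were the closest pair, with a root mean square distance of 0.22 log2 units, followed by Cdhr5 and Muc13 at 0.27. Lypd8 and Ezr were the farthest apart, at 3.72. Measured the same way against all other genes, Vil1 was nearest to Papss2 (0.14) and Tmigd1 (0.19), Cdhr5 to Ttr (0.20) and Erbb3 (0.22), and Muc13 to Gsta2 (0.11) and Tm6sf2 (0.16). For Lypd8 the nearest were Ugt2b5 (0.37) and Fabp2 (0.40), and for Clec2h Abcg5 (0.36) and Sult1b1 (0.36). The flat or mild profiles of the others were common: 7820 genes lay within 0.25 of Espn (nearest Cntn3 and Baat), 1687 of Ezr (Zfp451 and Cinp) and 814 of Pdzk1 (Hsd17b13 and Tlcd1). By the same distance 2 genes lay near Vil1, 3 near Cdhr5, 6 near Muc13 and 0 near Lypd8 or Clec2h.

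The rest of the microvillus apparatus moved both ways. Of 51 listed genes of the actin core, motors, tip adhesion and membrane linkers, 45 were measured, and in aggregates 19 were higher and 16 lower (22.9% and 23.4% of all genes), with a median change of 0.12. Eps8l3, of the Eps8 family, rose by 3.55 ± 0.19 (SE), the actin-severing relative of villin Scin by 2.86 ± 0.21, the vesicle motor Myo5b by 2.36 ± 0.12 and the apical fusion protein Stx3 by 2.32 ± 0.15 (limma adjusted p of 3.45e-07 or lower). The other members of the ezrin family changed by more than Ezr: radixin (Rdx) fell by 2.85 on the log2 scale and moesin (Msn) by 2.46 (limma adjusted p = 1.89e-07 and 1.18e-06). The bundler Pls3 fell by 2.01 and the motor Myo5a by 1.85. Ezrin, radixin and moesin thus were all lower in aggregates, by different amounts, with the second Ezr probe set as the exception.

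In Matrigel 17 of the 45 were higher and 8 lower (14.1% and 14.3% of all genes; median 0.03). Eps8l3 rose by 2.49, Scin by 1.98, Myo5b by 1.92 and Stx3 by 1.67. Radixin (Rdx) fell by 1.59, Myo5a by 1.30, the scaffold Slc9a3r2 by 0.80 and moesin (Msn) by 0.73 on the log2 scale. Between Matrigel and aggregates 12 were higher and 14 lower (13.9% and 12.7% of all genes; median -0.07). Pls3 was higher by 1.97, the actin-severing gelsolin (Gsn) by 1.80, Msn by 1.73 and Rdx by 1.26. The tip motor Myo7b was lower with a change of -1.20, Eps8l3 with -1.05, Scin with -0.88 and the scaffold Pdzd3 with -0.80. Eps8l3, Scin and Myo7b had the order of Vil1 and Cdhr5, highest in aggregates.

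**Figure D4:**
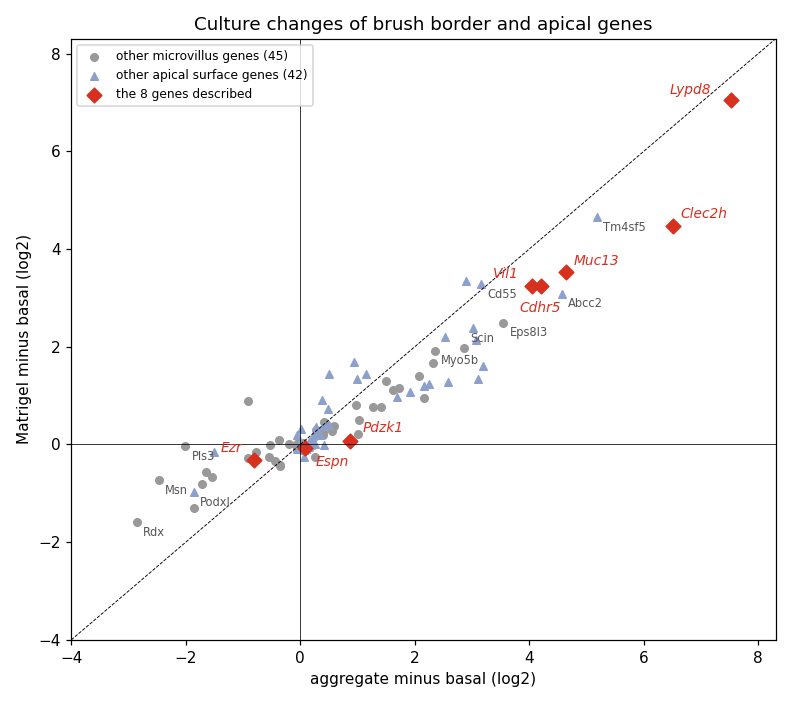
Change from basal culture in aggregates (horizontal axis, log2) and in Matrigel (vertical axis, log2) for the 8 genes (diamonds), 45 other microvillus genes (circles) and 42 other apical surface genes (triangles), with a dashed line where both changes are equal. Both axes use the same basal arrays, so the slope is no result; Rdx and Msn lie at lower left, at -2.85 and -2.46 in aggregates, and Lypd8 at upper right.

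Among other proteins of apical faces, 42 of 49 listed genes were measured, and in aggregates 23 were higher and 2 lower (22.9% and 23.4% of all genes), with a median change of 0.41 beside 0.10 over all genes. The tetraspanin-like Tm4sf5 rose by 5.19 ± 0.13 (SE), the canalicular export pump Abcc2 by 4.58 ± 0.14, the anion exchanger Slc26a6 by 3.20 ± 0.15 and the complement regulator Cd55 by 3.16 ± 0.16 (limma adjusted p of 2.21e-08 or lower). Podocalyxin (Podxl) fell by 1.86 and the urokinase receptor Plaur, a distant relative of Lypd8, by 1.50 on the log2 scale. In Matrigel 20 were higher and 1 lower (14.1% and 14.3% of all genes; median 0.38): Tm4sf5 rose by 4.66, the membrane mucin Muc3 by 3.34, Cd55 by 3.28 and Abcc2 by 3.09, and Podxl fell by 0.98. Between Matrigel and aggregates 6 were higher and 12 lower (13.9% and 12.7% of all genes; median -0.13). Plaur was higher by 1.34, the trefoil peptide genes Tff1 and Tff3 by 0.92 and 0.75, and Podxl by 0.88. The vitamin B12 receptor subunit Cubn was lower with a change of -1.76, Slc26a6 with -1.59, Abcc2 with -1.49 and the antibody receptor Pigr with -1.30. These changes are averages over both lines. Of the 42 genes, 11 passed for the line difference (6.01% of all genes). For a difference in response, 3 passed for aggregates and 5 for Matrigel (0.468% and 0.686% of all genes).

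Markers of other cell types were read beside these genes. Of 12 listed markers of intestinal epithelium 9 were measured, and 8 were higher in aggregates (22.9% of all genes), 6 were higher in Matrigel (14.1%) and 6 were lower in Matrigel than in aggregates (12.7%). Their summed level ran from 11.92 to 12.63 in basal culture, 15.30 to 15.69 in aggregates and 14.91 to 15.23 in Matrigel (log2 of the summed intensities, range over arrays), in the order of the members that rose. The brightest were Krt20, Apoa4 and Fabp2. Of these, Apoa4 did not share that order, with means of 13.27 in aggregates and 13.57 in Matrigel, a difference that did not pass. The gut-defining factor Cdx2 had means of 9.98, 10.75 and 10.05, and its relative Cdx1, at 6.26, 6.33 and 6.15, lay low in every culture. Sums of the 11 liver markers ran from 15.51 to 15.62 in basal culture, 16.22 to 16.55 in aggregates and 16.28 to 16.41 in Matrigel, so the last 2 cultures overlapped. Of the 11, 6 were higher and 3 lower in aggregates (22.9% and 23.4% of all genes). In Matrigel 6 were higher and 0 lower (14.1% and 14.3% of all genes). Among the lower ones, Krt7 had means of 12.04 in basal culture and 9.75 in aggregates, and Krt18 had 13.63 and 12.32. The part of either in the rises was not tested.

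Kidney tubule, the other tissue with a dense brush border, gave sums of 11.12 to 11.55, 12.37 to 12.51 and 11.45 to 11.93 over 12 markers, with Cubn, Kap and Aqp2 brightest. Cubn, which is also among the apical surface genes above, had means of 8.48, 11.58 and 9.82, while Kap had 8.97, 9.12 and 8.91. Of these 12, 2 were higher in aggregates, where 22.9% of all genes were, and the kidney-defining genes Umod and Slc34a1 had means of 4.92 and 6.23 over all arrays. Over 10 markers of secretory gut cells, with Tff3, Zg16 and Spdef brightest, the sums were 10.55 to 10.77, 10.75 to 11.46 and 10.73 to 12.26. Only Tff3 was called in aggregates (22.9% of all genes higher and 23.4% lower) and in Matrigel (14.1% and 14.3%). By line the Matrigel sums were 11.59 and 12.26 in 9A1 and 10.73 and 10.92 in 14B3. Sums for 9 blood cell markers were 10.32 to 10.54, 10.53 to 10.76 and 10.36 to 10.72. For 10 endothelial and stellate markers they were 10.83 to 11.02, 10.86 to 11.07 and 10.92 to 11.79. The Matrigel sums of these endothelial and stellate markers were 11.79 and 11.58 in 9A1 and 10.92 and 11.16 in 14B3. Normalized intensities of this kind do not reach 0, so a low sum is given as a level and not as absence.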

How the data were processed

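RNA was measured on 12 arrays, and the replicates are not stated to be separate cultures. The deposited values are RMA intensity per probe set on a linear scale, which the authors made by RMA in R 2.3.1 per the submitters' processing notes; the log2 was taken here. Of 22690 probe sets, 20380 carried 1 gene symbol in the platform annotation (20351 matched a mouse gene table by ID), 691 carried several symbols, 1555 carried no symbol and 64 were array controls. Those without 1 symbol were dropped, and each of the 12393 genes was read from its brightest probe set, dim ones included.

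Means of the 6 groups were fitted with limma 3.58.1 (lmFit, eBayes) in R 4.3.3, with 6 residual degrees of freedom, two-sided, adjusted by Benjamini-Hochberg over all genes. The script was tested on simulated data. The difference between replicate numbers correlated across genes in 15 of 15 pairs of groups (r 0.10 to 0.64). The main fit did not pair the arrays by replicate number, and its errors and p-values ignore any such pairing. A block for the replicate number within each line was run only as an alternative. Alternatives were each array left out, the replicate block, the mean of probe sets, every probe set, quantile normalization, median centring, a pseudocount of 32, genes above the median level, an intensity trend and array weights.

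The members and lists were chosen with earlier results of these data known. Named were all members, and up to 4 called genes per list, direction and culture comparison with the largest change. The 2 nearest profiles per member and the 3 brightest genes of a marker list were named as well. Some further markers were named after their values were seen. These were Krt18, Hnf4a, Alb, Cdx1, Cdx2, Umod and Slc34a1 as defining genes, and Krt7, Sox9, Epcam, Ttr, Apoa1 and Afp as other liver markers. Plots used matplotlib 3.10.9 under Python 3.11.15.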

Additional observations from a re-analysis of the deposited data

Results flagged for a closer look

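In basal culture Lypd8 read 6.90 on basal_14B3 replicate 2, while the other 3 basal arrays read 6.25 to 6.28, so that 1 array stood far from the rest of its culture. The 8 genes gave 24 groups of 4 arrays that were looked at in this way, and chance alone marks about 1 in 20 groups.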

How the results depend on the processing

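Of 996 values of single genes under the alternatives, 962 kept their side of the threshold, 31 lost a call, 3 gained one and 0 of the called values changed sign; 19 values called in neither setting did change sign. The block with paired replicate numbers changed no call of a member, but it moved the count over all genes to 1119 for 14B3 minus 9A1, 118 for the aggregate response and 165 for the Matrigel response. With every probe set tested, 9134 probe sets were called for aggregate minus basal, 5397 for Matrigel minus basal and 5093 for Matrigel minus aggregate, beside 5735, 3519 and 3307 genes, because more features entered. Among genes above the median level, where Espn and Pdzk1 were not tested, 479 genes were called for 14B3 minus 9A1, 19 for the aggregate response and 37 for the Matrigel response, and 15 apical surface genes for aggregate minus basal. With median centring 0 members were called for 14B3 minus 9A1. That scaling also moved the share of called genes that were higher from 52.3% to 41.5% for Matrigel minus aggregate, and moved the median change of all genes from -0.10 to -0.14.

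Leaving out 1 array at a time, the members called were 7 for aggregate minus basal, 5 to 6 for Matrigel minus basal, 5 to 7 for Matrigel minus aggregate, 0 to 1 for 14B3 minus 9A1 and 0 to 1 for each response. Over all genes the counts were 4894 to 5787, 2608 to 3592, 2399 to 3710, 494 to 747, 23 to 98 and 30 to 105 in that order. Microvillus genes called were 31 to 35, 19 to 25 and 21 to 25, and apical surface genes 22 to 25, 21 to 23 and 15 to 18. The lone array of a group is then taken to vary like the others. Basal levels that may be background limit the folds of Lypd8 and Clec2h most, at basal means of 6.43 and 5.62.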
